A study of Mus musculus with 4 samples.

Results

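A group of 10 surface genes best known from the endothelium, Tek, Tie1, Ecscr, Emcn, Ramp2, Stab1, Robo4, Esam, Cdh5 and Eng, was examined in haematopoietic stem cells (HSCs) sorted by their level of the transcription factor N-myc. All 10 were measured among the 18193 genes on the array, by 12 of its 45101 probe sets. Of these probe sets, the annotation gives each 1 gene name, and for each gene 1 was chosen by the highest mean log2 intensity over the 4 arrays. The genes themselves were selected on their endothelial role with some of their differences between the fractions already known, so those differences are descriptions of these arrays and not independent evidence.

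The groups were N-myc high HSCs and N-myc low HSCs from bone marrow of transgenic mice that carry an N-myc/mCherry fusion gene, and mCherry brightness parted the fractions. Cells of both groups were Lin-Sca+Kit+CD48-CD150+, taken without culture or treatment. Each fraction was profiled once from mouse 1 and once from mouse 2, so that each group held 2 of the 4 arrays. Strain, age and sex of the mice, how the fusion gene was inserted and the number of cells per sample are not stated in the labels.

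Blood stem cells and endothelial cells arise from a common embryonic lineage and go on sharing surface proteins. Tek (Tie2) and Tie1 are receptor tyrosine kinases, Tek being the receptor of the angiopoietins. In adult marrow, Tek on stem cells and angiopoietin-1 are linked to quiescence and to adhesion in the niche. Esam, Emcn, Robo4 and Eng have also been used as surface markers of mouse HSCs, whereas Cdh5 (VE-cadherin) forms endothelial junctions and marks the embryonic haemogenic endothelium.

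Promoter windows from RefSeq (build GRCm38.p6) were used for 6 of the 10 genes, namely Tek, Tie1, Emcn, Stab1, Robo4 and Eng. Ecscr, Ramp2, Esam and Cdh5 were not searched, so the motif counts do not cover them, nor the gene with the widest difference, Ecscr. The 250 bases before the start of 4 of them are shown, so that genes whose values lay higher (Emcn, Eng), lower (Stab1) and close together (Tek) in N-myc high HSCs can be compared. Capitals mark matches, on both strands, to AGGAAG or CGGAAG, cores bound by ETS factors, to GATAAG, bound by GATA factors, or to CACGTG, the E-box bound by MYC proteins with MAX.
Emcn (chr3:137340828-137341077, plus strand): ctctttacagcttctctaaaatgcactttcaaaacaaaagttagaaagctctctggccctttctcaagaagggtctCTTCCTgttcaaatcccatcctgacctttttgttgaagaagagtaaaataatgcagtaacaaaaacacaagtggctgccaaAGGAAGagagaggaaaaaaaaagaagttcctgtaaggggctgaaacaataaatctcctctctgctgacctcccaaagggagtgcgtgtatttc
Eng (chr2:32646345-32646594, plus strand): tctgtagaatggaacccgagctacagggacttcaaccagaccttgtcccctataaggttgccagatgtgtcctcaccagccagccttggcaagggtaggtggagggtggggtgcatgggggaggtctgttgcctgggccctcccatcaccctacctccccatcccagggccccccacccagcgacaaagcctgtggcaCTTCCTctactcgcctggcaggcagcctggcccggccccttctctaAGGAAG
Stab1 (chr14:31168642-31168891, minus strand): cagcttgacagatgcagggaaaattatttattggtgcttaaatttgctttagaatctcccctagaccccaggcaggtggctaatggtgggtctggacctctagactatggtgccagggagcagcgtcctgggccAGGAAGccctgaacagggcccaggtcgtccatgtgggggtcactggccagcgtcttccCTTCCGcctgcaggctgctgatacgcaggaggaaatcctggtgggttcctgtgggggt
Tek (chr4:94739039-94739288, plus strand): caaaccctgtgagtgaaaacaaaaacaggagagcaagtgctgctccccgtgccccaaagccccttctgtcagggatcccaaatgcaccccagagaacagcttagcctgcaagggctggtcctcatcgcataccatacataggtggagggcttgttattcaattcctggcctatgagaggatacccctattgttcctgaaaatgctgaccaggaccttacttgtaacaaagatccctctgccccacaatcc

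AGGAAG was found in 5 of the 6 windows, all but Tek, and in 29.5% of the 32851 RefSeq windows of the same length. CGGAAG was found in 2 of the 6, Tie1 and Stab1, and in 13.6% of all windows. CACGTG and GATAAG were found in 0 of the 6, against 6.02% and 6.55% of all windows. These are matches of letters in a short window and do not show binding. Emcn and Eng each carried 2 matches to AGGAAG, and in Eng one of them began 6 bases before the gene's start. In Stab1, CGGAAG lay on the opposite strand, 58 bases before the start.

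Values are log2 intensities that the authors made with RMA, so a difference of 1 is a 2-fold difference, and levels of different probe sets are not comparable. Mycn, the gene behind the sort, had log2 intensities of 10.48 and 10.39 in N-myc high HSCs, against 9.44 and 9.65 in N-myc low HSCs (mouse 1 and 2). Both arrays labelled mouse 1 carried the X-inactivation RNA Xist (11.38 in N-myc high, 11.10 in N-myc low) together with the Y-linked Eif2s3y (8.53 in N-myc high, 8.43 in N-myc low). Whether this RNA came from a single animal or from a mixture was not tested. Mouse 1 therefore names the label here and not a known single animal. The bacterial hybridisation controls bioB and bioC averaged 10.67 and 10.62 on the N-myc high arrays, against 10.84 and 11.51 on the N-myc low arrays, so the N-myc low array of mouse 2 stood apart. The array median named from here on is the median of an array over the 18193 genes, each by its chosen probe set. Over all probe sets the median was lower, at 5.26 to 5.32. Of the genes behind the sort, Kit and Slamf1 (CD150) lay above the array median on all 4 arrays. Cd48, against which the cells were sorted, lay above it too. Ptprc, the CD45 gene of blood cells, also lay above it on all 4. Ly6a, which encodes Sca-1, was not measured here.

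The label of the group was set against 17 markers that define endothelial cells. Over all genes, 8143 of 18193 lay below the array median over genes on all 4 arrays and 8142 above it. Of the 17 markers, 13 lay below it on all 4. Among them were the VEGF receptors Kdr, Flt1 and Flt4, Plvap of fenestrated vessels, the tight junction gene Cldn5, the nitric oxide synthase gene Nos3 and Stab2 of sinusoids. In mouse 2, Kdr (5.50) and Cldn5 (5.59) in N-myc high and Flt4 (5.84) in N-myc low exceeded the median over all probe sets. Egfl7, Aqp1 and Myct1 lay above the array median over genes on all 4, and Sox18 on 2. The mean log2 level of these markers was 5.23 and 5.41 in N-myc high HSCs, against 5.14 and 5.24 in N-myc low HSCs. Among the 10 surface genes, 7 lay above the array median on all 4 arrays, while Ramp2, Stab1 and Cdh5 lay below it on all 4. In mouse 2, Ramp2 in N-myc high (5.84) and Stab1 in N-myc low (5.51) exceeded the median over all probe sets. Detection calls were not used here, so whether Ramp2, Stab1 and Cdh5 exceed background is unknown. With bulk RNA, a change in the share of some cells and a change of RNA per cell cannot be told apart.

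Across the group, 8 of the 10 genes had a higher mean in N-myc high than in N-myc low HSCs, and Stab1 and Cdh5 had a lower one. The median difference was 0.41 on the log2 scale, beside -0.03 over all genes, with 0.20 in mouse 1 and 0.24 in mouse 2. The fractions were apart, with N-myc high on top, for 5 genes, Tie1, Ecscr, Emcn, Esam and Eng, where 15.6% of all genes did so. They were apart with N-myc high underneath for 2, Stab1 and Cdh5, where 20.8% of all genes did so. Tek, Ramp2 and Robo4 overlapped. No gene passed an adjusted p under 0.05 in limma (0 of 18193, 0% of all genes), with the surface genes at adjusted p of 0.733 to 0.991, while 1148 genes (6.31%) had an unadjusted p under 0.05. Of the 10, Ecscr on the higher side (3.53% of all genes) and Stab1 on the lower side (2.78% of all genes) had such an unadjusted p. With the mouse as a block, which left the differences as they were, 3 had one, Ramp2 (unadjusted p = 0.0156, adjusted p = 0.781 in limma) beside Ecscr and Stab1. In that fit, 1098 of 18193 genes had an unadjusted p under 0.05 (limma). The median of the 10 rested in part on single arrays, at 0.25 without the N-myc high array of mouse 2, 0.23 without the N-myc low array of mouse 1 and 0.26 without that of mouse 2. It was 0.16 with the hybridisation controls as a covariate. Those controls were higher on both N-myc low arrays than on both N-myc high arrays. The covariate therefore overlaps with the fraction, and the 2 cannot be fully told apart wherever it is used.

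**Figure D1:**
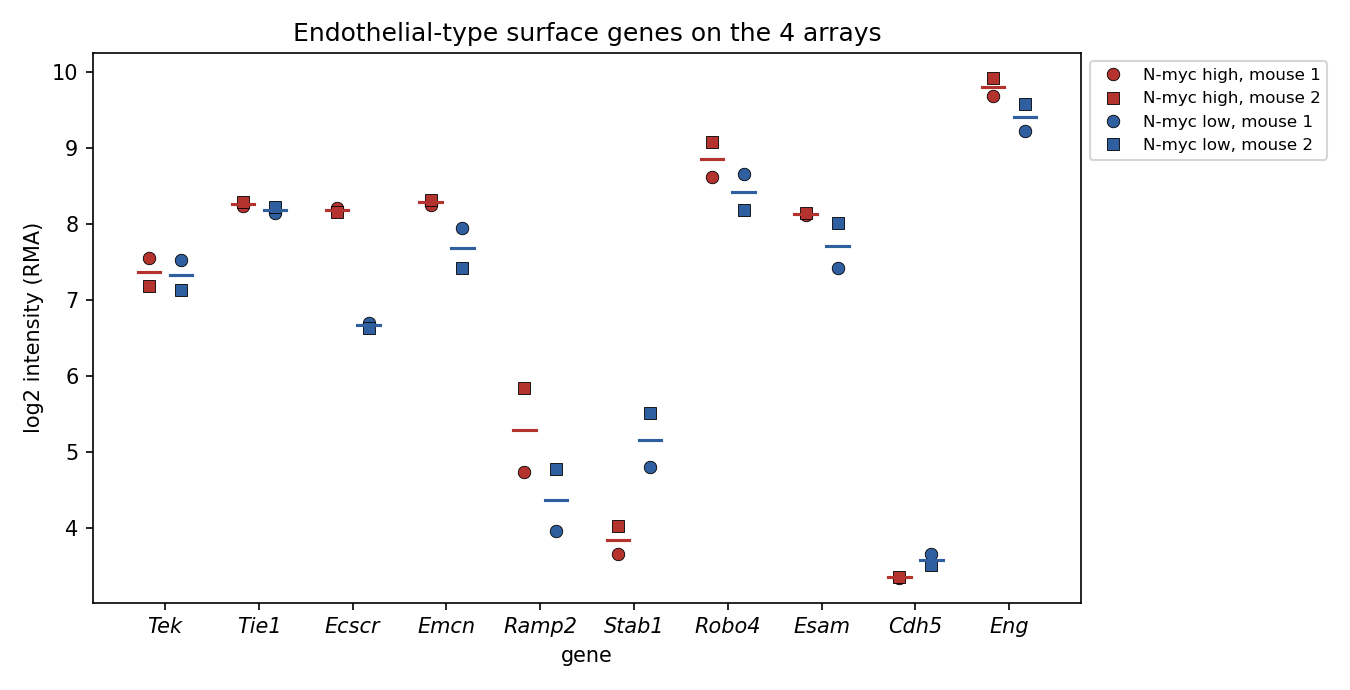
Log2 intensity (vertical axis) of each of the 10 genes (horizontal axis) on every array, with N-myc high in red left of N-myc low in blue, circles for mouse 1, squares for mouse 2 and bars for the mean of 2 arrays. Ecscr parts the fractions most clearly on the higher side (8.20 and 8.15 against 6.69 and 6.63) and Stab1 on the lower side, while the values of Tek overlap.

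The receptor kinases came out close to equal in both fractions. Tek, the angiopoietin receptor, had log2 intensities of 7.55 and 7.18 in N-myc high HSCs, against 7.52 and 7.12 in N-myc low HSCs (mouse 1 and 2 in each). Mouse 1 was higher than mouse 2 in both fractions, so the groups overlapped, and the difference of 0.04 had an SE of 0.249 (limma adjusted p = 0.991). Its 95% interval ran from -0.62 to 0.70, so a difference of up to about that size in either direction is compatible with these arrays. The sign of Tek depended on the setting, with -0.01 after centring each array on its median and -0.25 once hybridisation controls were a covariate. Tie1, a related receptor that binds no angiopoietin with high affinity and modulates Tek, had 8.24 and 8.29 in N-myc high HSCs, against 8.14 and 8.23 in N-myc low HSCs. The groups did not overlap, but the difference of 0.08 stayed within its limma SE of 0.175 (limma adjusted p = 0.953). That SE also draws on the variance of all genes. The SD between mice was 0.0335 for N-myc high HSCs and 0.0574 for N-myc low HSCs. Of all genes, 88.4% differed more than Tek and 78.3% more than Tie1.

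Beside the 10 genes, 15 lists of partners and markers were read by their medians, and for 13 of them the median turned sign under at least 1 of 11 alternative settings, all but the endoglin and progenitor lists. The 6 partner genes of the Tie receptors had a median difference of -0.24, and 0 were called (limma), with 0 at an unadjusted p under 0.05. Both N-myc high arrays lay below both N-myc low arrays for 2 of them, and 0 lay above. Over all genes, 20.8% lay below and 15.6% above, and the counts of every list are to be read beside these shares. Angpt1, the activating ligand of Tek, had 10.29 and 10.23 in N-myc high HSCs, against 10.30 and 9.83 in N-myc low HSCs, a difference of 0.19 (SE 0.233). Ptprb, the phosphatase that restrains Tek, was below the array median on all arrays, with a difference of -0.13 (SE 0.199). Dok2, an adaptor recruited by Tek, differed by -0.52 (SE 0.274) and the ligand gene Angpt4 by -0.35 (SE 0.220). None of these values passed the adjusted threshold.

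Ecscr, which encodes an endothelial surface protein that regulates chemotaxis and apoptosis, showed the widest gap of the 10. It had 8.20 and 8.15 in N-myc high HSCs, against 6.69 and 6.63 in N-myc low HSCs. The SD between mice was 0.035 for N-myc high HSCs and 0.039 for N-myc low HSCs, and the fractions were apart in both mice. Its difference was 1.52 (SE 0.174, 95% interval 1.06 to 1.98), or 2.86-fold, with 1.52 in each mouse (limma adjusted p = 0.733, unadjusted p = 0.00054). It ranged from 1.47 to 1.55 over the other settings, and 0.786% of all genes had a larger absolute difference. A single probe set measures Ecscr, so no other probe set bears on this value. The genes nearest to Ecscr in their centred values over the 4 arrays were H2-Aa, Prickle1 and Arhgef26, at Euclidean distances of 0.10, 0.15 and 0.19 on the log2 scale. H2-Aa differed by 1.42, Prickle1 by 1.61 and Arhgef26 by 1.43.

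Emcn encodes endomucin, a sialomucin of venous and capillary endothelium that hinders leukocyte adhesion. It had 8.25 and 8.32 in N-myc high HSCs, against 7.95 and 7.42 in N-myc low HSCs, so the groups did not overlap and the N-myc low arrays were the more spread. The difference was 0.60 (SE 0.247, limma adjusted p = 0.787), with 0.30 in mouse 1 and 0.90 in mouse 2. It was 0.34 without the N-myc low array of mouse 2 and 0.18 with hybridisation controls added as a covariate. The other 5 sialomucins of the list had a median difference of -0.01, with 2 below in both N-myc high arrays and 0 above, and of -0.34 over the mean of each gene's probe sets. Among them Cd34, a sialomucin of progenitors and endothelium, had 9.49 and 10.10 in N-myc high HSCs, against 10.47 and 10.22 in N-myc low HSCs, a difference of -0.55 (SE 0.280, limma adjusted p = 0.806). Selplg, the P-selectin ligand, differed by 0.27 (SE 0.245) and overlapped.

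Ramp2 encodes the accessory protein that turns the calcitonin receptor-like receptor into a receptor for adrenomedullin. It had 4.74 and 5.84 in N-myc high HSCs, against 3.95 and 4.77 in N-myc low HSCs. Mouse 2 was higher than mouse 1 in both fractions, which made the groups overlap, while N-myc high lay above N-myc low within each mouse, by 0.79 in mouse 1 and 1.08 in mouse 2. The difference was 0.93 (SE 0.489, limma adjusted p = 0.806), and with the mouse as a block its SE was 0.200 (limma adjusted p = 0.781). It was 0.38 without the N-myc high array of mouse 2, 1.48 without that of mouse 1 and 1.5 with hybridisation controls added as a covariate. A further 2 probe sets are annotated to Ramp2 and Vps25 together and entered no fit. They differed by 0.14 and -0.32, so 1 of them shares the direction of the Ramp2 probe set and the other does not.

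The receptor that Ramp2 serves is encoded by Calcrl. It had 8.84 and 8.99 in N-myc high HSCs, against 8.38 and 8.94 in N-myc low HSCs, a difference of 0.26 (SE 0.260). The 7 measured genes of this system had a median of -0.11, with 2 below and 0 above in both N-myc high arrays, and 0 at an unadjusted p under 0.05. The sign rested on single arrays, with 0.03 without the N-myc high array of mouse 1 and 0.01 without the N-myc low array of mouse 1. The smallest p values belonged to the calcitonin receptor gene Calcr (-0.49, SE 0.233) and the ligand gene Adm2 (-0.28, SE 0.188). Both lay below the array median on all arrays.

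Eng encodes endoglin, a co-receptor for ligands of the BMP and TGF-beta family. It had 9.68 and 9.92 in N-myc high HSCs, against 9.22 and 9.58 in N-myc low HSCs, with mouse 2 higher in both fractions and no overlap. The difference was 0.40 (SE 0.223, limma adjusted p = 0.807). Its other probe set had 8.05 and 8.07 in N-myc high HSCs, against 7.52 and 7.11 in N-myc low HSCs, a difference of 0.75 (SE 0.226, limma adjusted p = 0.775 over all probe sets, of which 0% were called). Both probe sets of Eng therefore gave higher values in N-myc high within each mouse.

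In the list of endoglin partners and BMP signalling, 11 of 12 genes had a difference above 0, beside 45.3% of all genes. The fractions were apart with N-myc high on top for 7 (15.6% over all genes) and underneath for 0 (20.8% over all genes). The median difference was 0.33, with 0.21 in mouse 1 and 0.43 in mouse 2, but 0.10 over the mean of each gene's probe sets. The list was not tested as a set and 0 of its genes were called (limma), while 2 had an unadjusted p under 0.05. These were the TGF-beta receptor gene Tgfbr2 with 0.63 (SE 0.202) and the signal transducer gene Smad5 with 0.60 (SE 0.224), both at a limma adjusted p of 0.779. Acvrl1 (ALK1), the receptor that endoglin serves in endothelium, lay below the array median on all arrays and differed by 0.11 (SE 0.186).

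Robo4 is the Roundabout receptor of endothelial cells and, in mouse marrow, has been tied to the lodging of HSCs. It had 8.62 and 9.07 in N-myc high HSCs, against 8.66 and 8.18 in N-myc low HSCs. The N-myc low array of mouse 1 lay between the N-myc high arrays. The difference was -0.04 in mouse 1 and 0.89 in mouse 2, so the mean difference of 0.43 (SE 0.278, limma adjusted p = 0.826) came from mouse 2. It was 0.19 without the N-myc low array of mouse 2 and 0.02 with hybridisation controls added as a covariate. Of the 7 other guidance genes of the list, the Slit genes, the other Robo genes and Unc5b, 0 had a difference above 0, the median was -0.08 and 0 had an unadjusted p under 0.05. Robo1 differed by -0.01 (SE 0.446), Robo3 by -0.50 (SE 0.229) and the netrin receptor gene Unc5b by -0.28 (SE 0.200).

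Esam encodes an adhesion molecule of endothelial tight junctions and platelets and is a marker of mouse HSCs. It had 8.11 and 8.14 in N-myc high HSCs, against 7.42 and 8.0 in N-myc low HSCs, so the groups did not overlap, with the N-myc low array of mouse 2 close to the N-myc high ones. The difference was 0.41 (SE 0.260, limma adjusted p = 0.822), with 0.69 in mouse 1 and 0.13 in mouse 2. It was 0.12 without the N-myc low array of mouse 1 and 0.87 with hybridisation controls added as a covariate. Esam and Robo4 lie close together on chromosome 9, with 2 protein-coding genes between them in the RefSeq table. Their differences did not run in parallel, since that of Esam was larger in mouse 1 and that of Robo4 in mouse 2.

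Cdh5, the VE-cadherin gene, had 3.34 and 3.35 in N-myc high HSCs, against 3.65 and 3.51 in N-myc low HSCs. Both N-myc high arrays lay below both N-myc low arrays, although 83.6% of all genes had a brighter mean. The difference was -0.23 (SE 0.178, limma adjusted p = 0.834). Its second probe set had 2.49 and 2.64 in N-myc high HSCs, against 2.85 and 3.25 in N-myc low HSCs, a difference of -0.49 (SE 0.232). At these intensities RMA values need not reflect transcript of the gene.

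Among the 11 other junction genes the median was 0.09, with 1 above and 1 below in both N-myc high arrays, and 1 on the lower side at an unadjusted p under 0.05. That gene was Icam2, an adhesion ligand of endothelium and leukocytes, with -0.63 (SE 0.208, limma adjusted p = 0.779). Cldn5 differed by 0.49 (SE 0.316). Pecam1, shared by endothelium and blood cells, had 6.19 and 7.16 in N-myc high HSCs, against 6.69 and 8.39 in N-myc low HSCs, a difference of -0.87 (SE 0.673) with overlap.

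Stab1 encodes stabilin-1, a scavenger receptor of sinusoidal endothelium and of some macrophages. It had 3.66 and 4.02 in N-myc high HSCs, against 4.80 and 5.51 in N-myc low HSCs. Both N-myc high arrays lay well below both N-myc low arrays, and all 4 values lay below their array's median over genes. The N-myc low value of mouse 2 exceeded that array's median over all probe sets (5.27). The difference was -1.31 (SE 0.316, 95% interval -2.15 to -0.47), with -1.14 in mouse 1 and -1.49 in mouse 2 (limma adjusted p = 0.762, unadjusted p = 0.011). It ranged from -1.67 to -0.96 with 1 array left out and was -0.78 with the hybridisation controls as a covariate. The sign of Stab1 was opposite to that of Ecscr, Emcn and Ramp2 in both mice.

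Stab2, the related sinusoidal scavenger receptor, was nearly equal in the fractions, at 4.67 and 4.68 in N-myc high HSCs, against 4.62 and 4.77 in N-myc low HSCs. The 8 other scavenger receptor genes had a median of 0.14, with 2 above and 1 below in both N-myc high arrays. At an unadjusted p under 0.05 were Scarf1, of modified lipoprotein uptake, with 0.55 (SE 0.181) and the mannose receptor gene Mrc1 with 2.26 (SE 0.807). Mrc1 differed by 0.73 in mouse 1 and 3.80 in mouse 2, and its N-myc low arrays were far apart, at 4.80 and 2.59.

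Macrophages also carry Stab1. The 12 macrophage markers had a mean log2 level of 5.75 and 5.62 in N-myc high HSCs, against 5.47 and 4.98 in N-myc low HSCs, and 6 of the 12 lay below the array median on all arrays, Adgre1 and Csf1r included. Their median difference was 0.26, but -0.01 without the N-myc low array of mouse 2 and -0.13 with hybridisation controls added as a covariate. The part of macrophage content in the difference of Stab1 was not tested. Of the 12, 4 lay above (15.6% over all genes) and 1 below (20.8% over all genes) in both N-myc high arrays. C1qb, a chain of complement C1q, differed by 2.66 (SE 0.194, limma adjusted p = 0.671). The genes of the other chains, C1qa (0.32, SE 0.428) and C1qc (0.26, SE 0.401), overlapped between the fractions. Over the 12, 8 had a difference above 0 and 4 below.

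**Figure D2:**
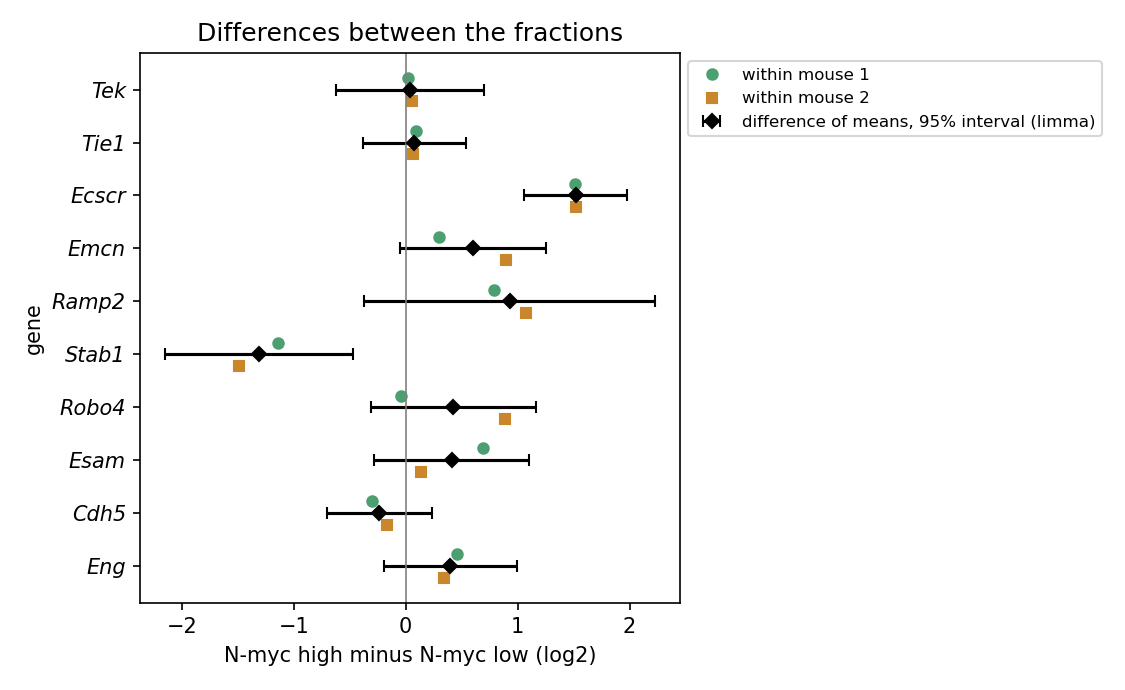
N-myc high minus N-myc low on the log2 scale (horizontal axis) for each gene (vertical axis), with the difference of means and its 95% limma interval in black, mouse 1 in green and mouse 2 in orange. The intervals of Ecscr (1.06 to 1.98) and Stab1 (-2.15 to -0.47) leave out 0, those of the other 8 include it, and the intervals are from the fit without the mouse as a block and not adjusted for the number of genes.

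Within the group, agreement between the mice varied. The difference had the same sign in both mice for 9 of the 10 genes, all but Robo4. That share was not set beside the share over all genes, so it describes these genes only. Pairing the arrays by mouse number is an assumption. Ecscr gave the same value in both, Tek and Tie1 stayed near 0 in both, and Emcn, Robo4 and Esam differed between the mice by over 0.5.

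**Figure D3:**
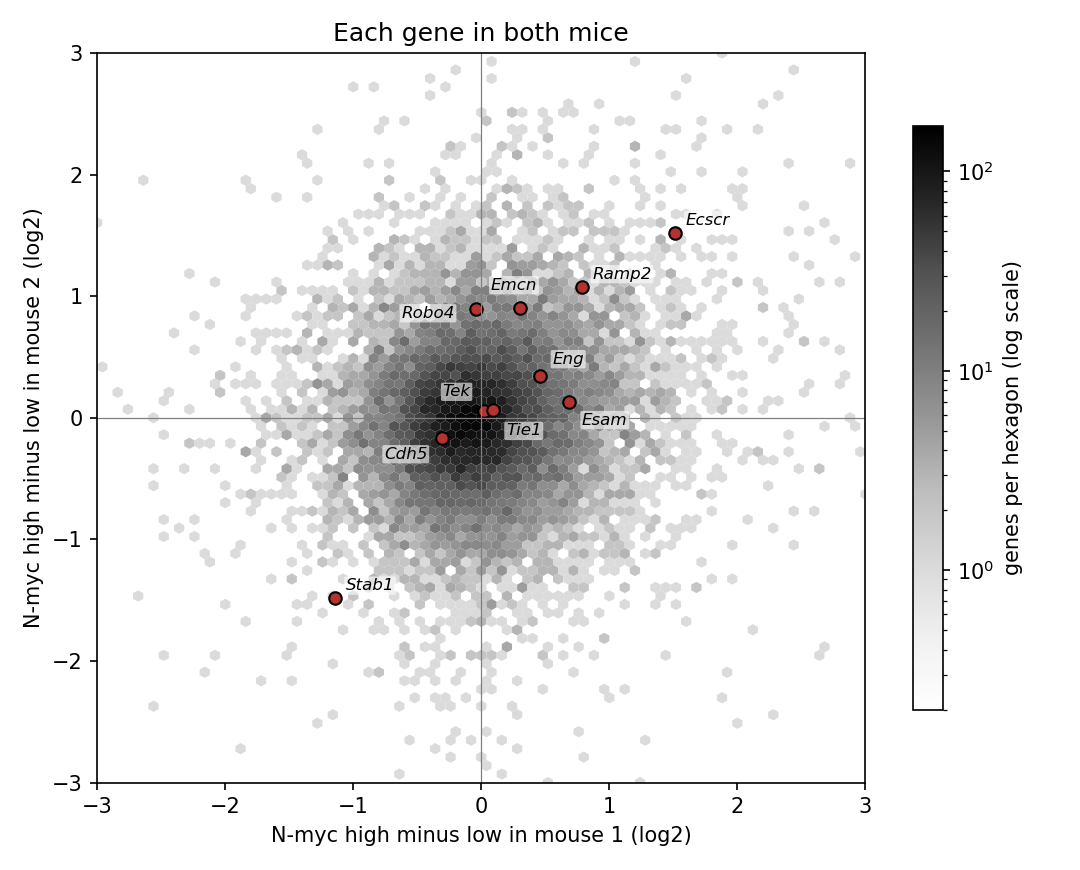
N-myc high minus N-myc low on the log2 scale in mouse 1 (horizontal axis) and mouse 2 (vertical axis), with all genes as grey hexagons shaded by number and the 10 surface genes in red. Both axes end at 3 and 48 genes lie outside. Ecscr (1.52 in both) and Stab1 (-1.14 and -1.49) lie at the edge of the cloud and Tek and Tie1 at its centre.

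Other regulators and ligands of the endothelial programme were read beside the group. Over all genes, 15.6% lay above and 20.8% below in both N-myc high arrays. In the VEGF axis, 3 of 9 genes lay above and 1 below in both N-myc high arrays, with a median of 0.22. It was -0.05 without the N-myc low array of mouse 1 and 0.05 without that of mouse 2. At an unadjusted p under 0.05 were the ligand genes Vegfc (0.65, SE 0.183) and Vegfb (0.69, SE 0.205), both at a limma adjusted p of 0.769. Kdr, the main VEGF receptor, had 4.61 and 5.50 in N-myc high HSCs, against 4.36 and 4.52 in N-myc low HSCs, a difference of 0.61 (SE 0.346).

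Of 17 transcription factors shared by endothelium and blood stem cells, 12 lay above the array median on all arrays. Both N-myc high arrays lay above for 4 (15.6% over all genes) and below for 2 (20.8% over all genes), and the median difference was 0.07. The SOX factor gene Sox18 had 6.61 and 6.47 in N-myc high HSCs, against 4.19 and 5.12 in N-myc low HSCs, a difference of 1.88 (SE 0.358, limma adjusted p = 0.744). Ets1, which encodes an ETS factor, differed by 0.80 (SE 0.284, limma adjusted p = 0.779). Sox17 and Sox7, close relatives of Sox18, lay below the array median on all arrays, at -0.17 (SE 0.267) and -0.13 (SE 0.173). Sox17 and Sox7 were named after their values were seen.

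Markers of other cells were read in the same way, beside the shares over all genes of 15.6% above and 20.8% below. Of 7 progenitor markers, 6 lay below and 1 above in both N-myc high arrays, with a median of -0.83 and a mean log2 level of 9.24 and 9.30 in N-myc high HSCs, against 10.08 and 9.84 in N-myc low HSCs. The smallest p values belonged to Cd48 with -2.21 (SE 0.340) and Cdk6, a kinase of G1 entry, with -0.97 (SE 0.189). The gene above was Flt3, a receptor of multipotent progenitors, with 1.20 (SE 0.355). Procr, the endothelial protein C receptor and a marker of HSCs, differed by 1.19 (SE 0.177), with 1.19 in each mouse (limma adjusted p = 0.744). The 7 measured megakaryocyte genes had a median of -0.06, with Vwf, the von Willebrand factor gene of endothelium, platelets and some HSCs, at 1.88 (SE 0.420) and the platelet receptor gene Gp1bb at -1.0 (SE 0.305). The 8 stroma markers had a median of 0.08, with the smallest p values for Bgn (0.54, SE 0.194) and Dcn (-0.26, SE 0.178). The 17 endothelial markers had a median of -0.02, with 5 above and 3 below in both N-myc high arrays. Of them, Sox18 (1.88) and the lipid carrier gene Fabp4 (0.56, SE 0.190) had an unadjusted p under 0.05. The part of progenitor content in the differences of the 10 surface genes was not tested.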

How the data were processed

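RNA of 4 samples was measured on an Affymetrix mouse array, after amplification from 5 ng of total RNA and biotin labelling with NuGEN reagents per the labels' protocols. The deposited values are log2 intensities per probe set, and per the submitters' processing notes the authors used RMA, affy and limma (versions not given in the sources used here). RMA removes shifts shared by all genes. Probe sets with 1 gene name (34945) were used, 932 with several names and 9160 unnamed were left out, and of the 64 control probe sets those of bioB and bioC served as a covariate. The comparison ran over all 18193 genes with limma 3.58.1 (lmFit, eBayes; R 4.3.3), with Benjamini-Hochberg adjustment and a threshold of 0.05. The code was tested on simulated data. With 2 against 2 arrays, the smallest two-sided p of an exact permutation test is 0.333. Arrays of the same mouse number were read as the same animal, which is an assumption. As a check of the pairing, deviations from the group means of arrays with 1 number had r = 0.0492 across genes. That value is too small to establish the pairing. Named genes were the 10 surface genes, the 2 of smallest p per list, fixed partners and the 3 nearest to the gene with the largest difference. Other genes were named as examples after their values were seen. Members and lists were chosen with earlier results of these data known. The number of arrays limits the precision. SEs and p values are from limma, which moves each gene's variance between these samples towards a value shared by all genes. They therefore do not measure a gene's own spread alone. Alternatives were the mean of probe sets, the mouse as a block, an intensity trend, the brighter 50% of genes, median centring, quantile normalisation, the hybridisation controls and leaving out each array.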

Additional observations from a re-analysis of the deposited data

How the results depend on the processing

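No gene was called in limma under any of the 11 alternatives, so no call was gained or lost for all genes, the 10 surface genes or their partner and marker lists, and unadjusted p under 0.05 went to between 795 and 1512 genes. The mouse as a replicate block left every difference as it was and called 0 genes, 0 of the 10 genes and 0 of their 12 probe sets, and it changed no call (median of the 10 genes 0.41). The median of the 10 was 0.16 with the hybridisation controls as a covariate and between 0.23 and 0.47 with 1 array left out; the cause was not tested. Tek turned to -0.011 with median centring, to -0.0009 with quantile normalisation and to -0.25 with the covariate, and ranged from -0.16 to 0.24 with 1 array left out (-0.14 without N-myc high mouse 1, -0.16 without N-myc low mouse 2). The other 9 genes kept their sign under each alternative run. Ramp2, Stab1 and Cdh5 fell outside the brighter 50% of genes and were not fitted there. With 1 array left out, the lone array of a fraction is assumed to vary like the others.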
